A study of Homo sapiens with 6 samples.

Results

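Kinesins are the motor proteins that walk along microtubules, and their transcripts were followed here in control and PHF8 knockout 786-O cells. Of the 54261 gene rows measured, 42 carried a kinesin motor name, that is, KIF and a digit, or KIFC1, KIFC2 or KIFC3. A further 5 rows with such a name were left out: the pseudogenes KIF18BP1 and KIF4CP, the antisense genes KIF25-AS1 and KIF9-AS1, and KIF1BP, a kinesin-binding protein that is not a motor. By their known main role, 14 of the 42 were grouped as mitotic, 17 as transport and 11 as other kinesins. The line 786-O was derived from a human clear cell renal cell carcinoma, and PHF8 encodes a histone demethylase of the PHD finger family. The 3 control libraries came from 786-O cells transfected with a control guide RNA for CRISPR-Cas9, and the 3 knockout libraries from 786-O cells transfected with a PHF8 guide RNA, both grown in RPMI-1640 with serum. Total RNA was sequenced, and the deposited values are read counts per gene. The labels name neither the guide sequences nor whether the cells were a pool or a single clone, and they do not say that replicates were separate cultures, so p-values reflect only how far these 6 libraries scatter, and that scatter may be technical.

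A kinesin has a motor domain that hydrolyses ATP to step along the microtubule, and a tail that sets what it carries. Mitotic kinesins push the spindle poles apart, align chromosomes, trim microtubule ends and build the midzone at which the cell divides, and their genes are mostly transcribed late in the cell cycle. Transport kinesins haul vesicles, mitochondria and ciliary components, mostly away from the cell centre, and hold their cargo through light chains and adaptor proteins. In renal epithelium, kinesins of the second family also build the primary cilium.

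Library totals ran from 21533615 reads in control library 1 to 29095133 reads in knockout library 3. PHF8 itself stood at 36.6, 35.1 and 32.9 CPM (read counts scaled to a common library size) in control libraries 1, 2 and 3 and at 10.8, 6.74 and 12.8 CPM in knockout libraries 1, 2 and 3, so 31.0%, 19.3% and 36.7% of the control mean remained. Its log2 fold change was -1.78 (SE 0.21, edgeR adjusted p = 1.19e-04). The remaining RNA does not measure how far the gene was disrupted or its protein lost. Summed CPM over 9 markers of a renal epithelial carcinoma line was 6479 to 6541 in control and 6944 to 8382 in knockout libraries. The list was mixed: 3 rose, 1 fell and 5 did not pass, with log2 fold changes from -1.08 to 0.70. Among all tested genes 28.9% were higher and 30.8% lower. With the correction for transcript length and GC content described below 1 marker rose and 3 fell. The 5 fibroblast markers summed to 3.95 to 4.12 CPM in control and 0.726 to 1.58 CPM in knockout libraries, and the 5 neuron markers to 190.3 to 220.9 and 316.8 to 373.8 CPM, most of it TUBB3. The part of other cell types in the kinesin values was not tested. The leukocyte markers PTPRC and CD3E and the endothelial marker CDH5 had 0 reads in every library, but their lists did not sum to 0. The 4 leukocyte markers summed to 0.200 to 0.336 CPM in control and 0.250 to 0.323 CPM in knockout libraries. The 4 endothelial markers summed to 1.401 to 1.492 and 1.499 to 3.027 CPM. Of the 2 tested endothelial markers 1 rose, with a log2 fold change of 1.04. Of the 3 tested neuron markers 1 rose, 1 fell and 1 did not pass, with log2 fold changes from -5.58 to 0.80. In bulk RNA, fewer cells of a kind and less RNA per cell cannot be told apart.

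Transcripts of 34 of the 42 kinesins were abundant enough to test. Most of the strongly expressed ones were lower in the knockout libraries: 9 of the 13 tested mitotic kinesins fell and 2 rose, while 2 missed the threshold. Among the 13 tested transport kinesins 8 fell and 2 rose, while 3 missed it. The 8 tested other kinesins held 3 that fell, 1 that rose and 4 that did not pass. A gene passed at a Benjamini-Hochberg adjusted p under 0.05 in edgeR's quasi-likelihood test over all 14398 tested genes, of which 30.8% were lower and 28.9% higher in the knockout, 59.7% in either direction. The median log2 fold change was -1.16 for the mitotic, -0.87 for the transport and -0.26 for the other kinesins, beside -0.01 for all tested genes.

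Falls of more than 2-fold were found for 7 mitotic, 5 transport and 3 other kinesins, and rises of more than 2-fold for 1 mitotic and 1 transport kinesin. Over all tested genes 14.2% were lower and 9.2% higher by that criterion. KIF15 and KIF26A passed the filter on low counts through the control libraries alone and KIF17 through the knockout libraries alone, so the filter itself selected them for a difference. Without these 3, 8 of 12 mitotic, 8 of 12 transport and 2 of 7 other kinesins fell and 2, 1 and 1 rose, and by more than 2-fold 6, 5 and 2 fell and 1, 0 and 0 rose. The 3 knockout libraries lay entirely on one side of the 3 control libraries for 28 of the 34 tested kinesins, a pattern held by 66.8% of all tested genes. Knockout library 2 was the lowest of the knockout libraries for 28 of the 34 (82.4%), beside 42.2% of all tested genes. Summed over each group, mitotic kinesins took 1135 to 1248 CPM in control and 704.2 to 796.5 CPM in knockout libraries, transport kinesins 884.6 to 997.4 and 466.5 to 646.2 CPM, and other kinesins 60.5 to 70.7 and 39.5 to 57.0 CPM. The groups did not overlap in any of these 3 sums.

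**Figure D1:**
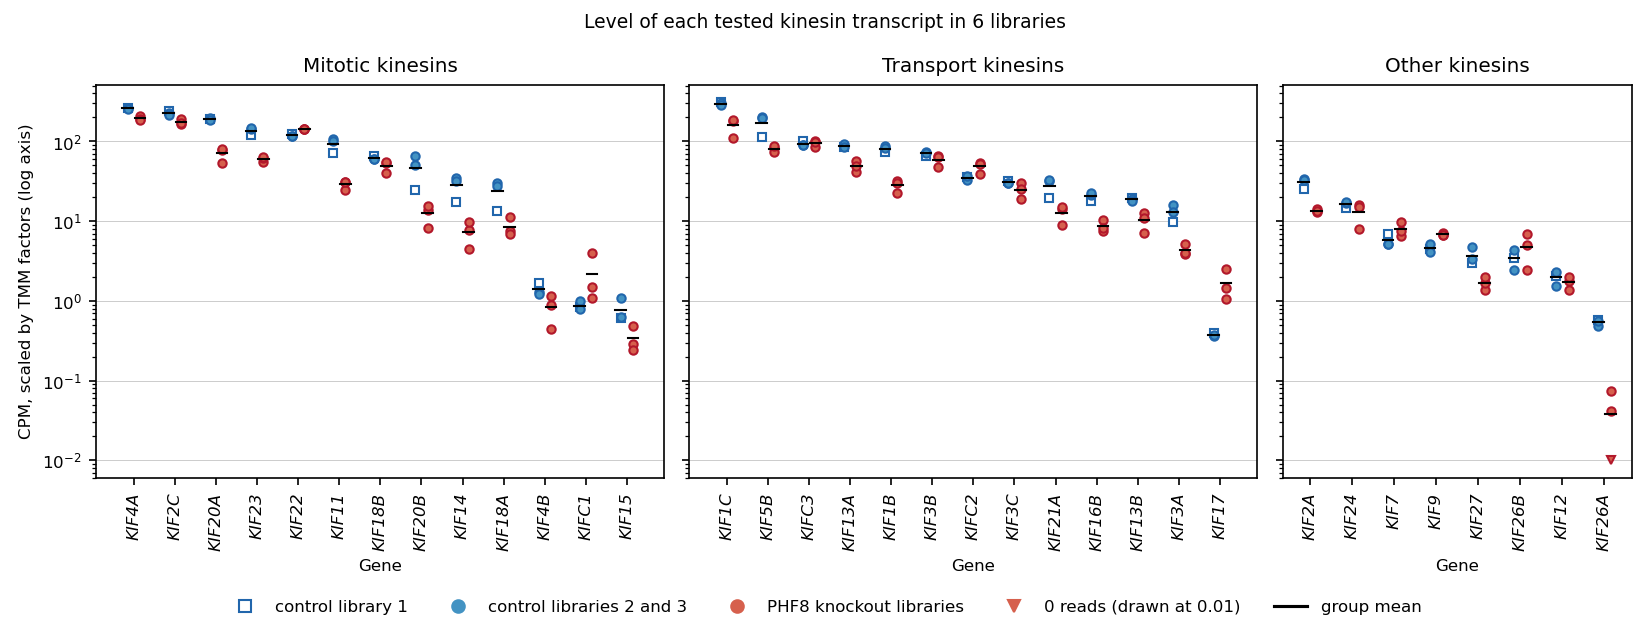
Level of each of the 34 tested kinesin transcripts in the 6 libraries, in CPM on a log axis, with 1 point per library, a bar for each group mean, and control library 1 drawn as an open square. Most knockout points lie below the control points, KIF22, KIFC1, KIFC2, KIF17 and KIF9 lie above them in CPM (with a correction for transcript length and GC content KIF22 turned to lower), and control library 1 lies below the other controls for KIF20B, KIF14, KIF18A, KIF5B and KIF21A.

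Levels can be compared between genes only per length of transcript. In the control libraries, CPM per kilobase of the canonical transcript was highest for KIF2C (79.8 ± 3.71, SD, n = 3), which removes tubulin from microtubule ends at the kinetochore. KIF20A (61.8 ± 2.31), KIF4A (59.2 ± 1.21) and KIF22 (57.4 ± 2.04) followed, and the ranges of mean ± SD of these neighbours in the order touched. KIF1C (37.7 ± 1.59), KIF23 (37.2 ± 3.74), KIF5B (29.2 ± 8.40) and KIFC3 (28.1 ± 2.10) came next, so 5 of the 6 highest were mitotic motors and KIF1C was the highest transport motor. At the low end stood KIFC1 (0.365), KIF4B (0.318), KIF26B (0.250), KIF15 (0.163), KIF17 (0.0951) and KIF26A (0.0780).

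The promoters of the mitotic kinesins share a sequence element that the choice of genes did not use, and 7 stretches are shown to let it be seen. Late cell cycle genes often carry a cell cycle genes homology region (CHR), TTTGAA, downstream of a CCAAT box. In RefSeq windows from 250 bases before to 50 after the start on GRCh38.p14, matched for 34 of the 42 kinesins, TTTGAA was found on either strand in 10 of 14 mitotic, 1 of 12 transport and 0 of 8 other kinesins, and in 15.4% of all 27305 promoters. The forms TTTAAA and TTCGAA, added after the KIF20A and KIF22 windows had been seen, were found in 5 of 14, 1 of 12 and 1 of 8, and in 13.6% of all promoters. Either form was present in 13 of 14, 2 of 12 and 1 of 8, and in 25.3% of all. CCAAT was found in 11 of 14, 3 of 12 and 3 of 8, and in 35.7% of all. The E2F-like letters TTTGGCGC or TTTCCCGC were found in 1 of 14, 0 of 12 and 1 of 8, and in 2.31% of all. A match is a description of letters, not of a bound site. Below are the 110 bases before the start, 5′ to 3′ on the gene's strand, with CHR forms and CCAAT boxes in capitals (ATTGG and TTCAAA are the reverse strand of CCAAT and TTTGAA). They lie at chr10:92593020-92593129 (plus strand), chr11:28108157-28108266 (minus strand), chr15:69414239-69414348 (plus strand), chrX:70289994-70290103 (plus strand), chr5:138179002-138179111 (plus strand), chr16:29790641-29790750 (plus strand) and chr5:132737547-132737656 (minus strand). KIF11, KIF18A, KIF23 and KIF20A fell by more than 2-fold, KIF4A fell by less, KIF22 rose, and the transport motor KIF3A, which fell, has none of these letters in the stretch.
KIF11: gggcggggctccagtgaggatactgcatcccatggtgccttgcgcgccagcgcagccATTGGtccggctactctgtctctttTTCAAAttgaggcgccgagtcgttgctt
KIF18A: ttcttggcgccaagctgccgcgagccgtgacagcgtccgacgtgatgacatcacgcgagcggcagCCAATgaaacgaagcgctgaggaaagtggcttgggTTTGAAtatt
KIF23: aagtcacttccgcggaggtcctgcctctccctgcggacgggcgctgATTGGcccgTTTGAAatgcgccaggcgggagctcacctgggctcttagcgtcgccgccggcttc
KIF4A: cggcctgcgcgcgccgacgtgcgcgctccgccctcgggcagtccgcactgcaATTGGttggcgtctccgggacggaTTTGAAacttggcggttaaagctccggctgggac
KIF20A: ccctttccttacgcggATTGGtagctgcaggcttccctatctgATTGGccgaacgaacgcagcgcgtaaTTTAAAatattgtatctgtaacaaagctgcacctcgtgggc
KIF22: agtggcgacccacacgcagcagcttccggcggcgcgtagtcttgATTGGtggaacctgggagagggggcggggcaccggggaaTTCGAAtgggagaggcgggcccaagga
KIF3A: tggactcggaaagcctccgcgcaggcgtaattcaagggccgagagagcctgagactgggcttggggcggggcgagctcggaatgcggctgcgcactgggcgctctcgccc

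In these stretches the CHR form lay 10 bases before the start in KIF18A, 27 in KIF22, 28 in KIF11, 34 in KIF4A, 41 in KIF20A and 55 in KIF23, counted from its first printed base. A CCAAT box stood upstream of it in all 6 mitotic promoters shown, which were picked to show these letters and do not stand for the group. Of the mitotic promoters not shown, KIF15 and KIF2C had a CHR form but no CCAAT box in the window, and KIF2B had neither. KIF14, KIF18B, KIF20B, KIF4B and KIFC1 had both. Among the promoters shown, TTTGAA itself occurred in KIF11, KIF18A and KIF23, which fell strongly, and in KIF4A, which fell slightly. KIFC1, not shown, also carried it and rose on few reads. The forms in KIF20A and KIF22 were added after these windows had been seen, so their presence there was fixed in advance. The rise of KIF22 turned to a fall with the correction for transcript length and GC content described below. The transport motor KIF5B carried TTTGAA at position -140.

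Among the motors that build the bipolar spindle, KIF11 and KIF15 fell. KIF11 (Eg5, chr10:92574105-92655395), the tetrameric motor that slides antiparallel microtubules apart, stood at 71.1, 107 and 102 CPM in control and 30.7, 24.8 and 31.2 CPM in knockout libraries 1, 2 and 3. Every knockout library lay below every control library, by a wide gap. The log2 fold change was -1.69 (SE 0.17, edgeR adjusted p = 5.84e-05), from 93.4 ± 19.4 to 28.9 ± 3.56 CPM (SD, n = 3 each). KIF15, which can take over part of the work of KIF11, was counted with 14, 27 and 17 reads in control and 7, 6 and 13 in knockout libraries. Its groups did not overlap, but the lowest control and highest knockout library were close, at 0.614 and 0.478 CPM. Its log2 fold change was -1.18 (SE 0.39, edgeR adjusted p = 0.0277), which did not pass once trends with transcript length and GC content were removed (the offset, given in full further on). KIF15 passed the low-count filter through the control libraries alone, so the filter had selected it for being higher there.

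The kinesin-6 motors KIF20A, KIF20B and KIF23 and the midbody motor KIF14 fell, each by more than 2-fold. KIF20A (MKLP2, chr5:138178719-138187723), which carries the chromosomal passenger complex to the midzone, stood at 193, 198 and 184 CPM in control and 78.8, 54.3 and 80.6 CPM in knockout libraries. The controls were tight and the knockout libraries all lay far below them, with library 2 lowest. The log2 fold change was -1.43 (SE 0.15, edgeR adjusted p = 6.89e-05). KIF23 (MKLP1, chr15:69414246-69448427), the motor of the centralspindlin complex, was counted at 120, 142 and 146 CPM in control and 55.5, 62.4 and 64.7 CPM in knockout libraries, which is a log2 fold change of -1.16 (SE 0.11, edgeR adjusted p = 4.95e-05). The knockout libraries of KIF23 were closer to each other than those of KIF20A.

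KIF14 (chr1:200551497-200620751), which brings citron kinase to the midbody, fell by the largest fold of the mitotic motors with a KIF name in the fit without the offset. It stood at 17.2, 34.7 and 32.2 CPM in control and 7.83, 4.44 and 9.67 CPM in knockout libraries, a log2 fold change of -1.94 (SE 0.32, edgeR adjusted p = 7.73e-04). KIF20B (MPP1, chr10:89701590-89774939), a midbody motor of the same family as KIF20A, stood at 24.8, 65.6 and 50.1 CPM in control and 14, 8.11 and 15.5 CPM in knockout libraries, a log2 fold change of -1.90 (SE 0.35, edgeR adjusted p = 1.35e-03). For both genes the groups did not overlap, but control library 1 held only 51.6% (KIF14) and 42.8% (KIF20B) of the mean of the other controls. For KIF20A that share was 101.1%.

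Motors that act on chromosomes and microtubule ends changed less, apart from KIF18A. KIF18A (chr11:28020619-28108156), which dampens chromosome movements at the metaphase plate, stood at 13.6, 29.7 and 27.6 CPM in control and 7.50, 6.86 and 11.3 CPM in knockout libraries. The groups did not overlap, although control library 1 was near knockout library 3. The log2 fold change was -1.47 (SE 0.30, edgeR adjusted p = 2.42e-03). Its close relative KIF18B, at 64.8, 61.1 and 59.8 CPM in control and 54.3, 40.4 and 54.9 CPM in knockout libraries, had a log2 fold change of -0.31 that did not pass (95% interval -0.61 to -0.02, edgeR adjusted p = 0.0663). The per-kilobase ratio of KIF18A to KIF18B was 0.462 ± 0.183 in control and 0.205 ± 0.0402 in knockout libraries, with no overlap. The pair differs in GC content (36.0% and 58.4%), and with the offset KIF18A was at -0.82 and KIF18B at -0.49 on the log2 scale.

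KIF2C (MCAK, chr1:44739818-44767767) stood at 239, 229 and 218 CPM in control and 192, 163 and 168 CPM in knockout libraries, and fell by 0.39 on the log2 scale (SE 0.10, edgeR adjusted p = 6.77e-03). The fall was small in this fit and the groups did not overlap. With the offset KIF2C fell further, at -0.56 (edgeR adjusted p = 9.25e-05). The chromokinesin KIF4A (chrX:70290104-70420886), which binds chromosome arms and shortens midzone microtubules, was at 264, 261 and 254 against 211, 192 and 186 CPM. KIF4A had a similarly small log2 fold change of -0.40 without the offset (SE 0.09, edgeR adjusted p = 3.63e-03). With the offset KIF4A did not pass (-0.16, edgeR adjusted p = 0.0547). Its intronless copy KIF4B was far lower, at 1.23 to 1.67 CPM in control and 0.444 to 1.17 CPM in knockout libraries, and did not pass (log2 fold change -0.74, 95% interval -1.51 to 0.03, edgeR adjusted p = 0.0887). KIF4A and KIF4B transcripts are 95.2% identical over 4345 aligned bases, so how their reads were split is uncertain.

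KIF22 and KIFC1 rose. KIF22 (Kid, chr16:29790727-29805385), a chromokinesin that pushes chromosome arms away from the poles, stood at 124, 117 and 117 CPM in control and 142, 145 and 145 CPM in knockout libraries. The groups were tight and did not overlap, the log2 fold change was 0.27 (SE 0.08, edgeR adjusted p = 0.0199), and with the correction for transcript length and GC content described below it turned to -0.21 (edgeR adjusted p = 0.0111). KIFC1 (HSET), a minus-end directed motor that focuses spindle poles, was counted with 19, 25 and 21 reads in control and 36, 27 and 107 reads in knockout libraries. Knockout library 3 alone stood clearly apart; the log2 fold change was 1.32 (SE 0.47, edgeR adjusted p = 0.0338), and it did not pass without that library, control library 1 or control library 3. Neighbouring genes on chromosome 6, among them RPS18, RING1 and VPS52, were listed at 0 reads in all 6 libraries, so the level of KIFC1 is uncertain, and their part in its values was not tested. Of the neighbours that were tested, BAK1 (log2 fold change 0.65), CUTA (1.15) and ZBTB9 (0.67) rose, with edgeR adjusted p of 7.75e-04, 6.09e-04 and 0.0101. PHF1 did not pass (0.43, edgeR adjusted p = 0.0565). The rise was thus not particular to KIFC1 among these genes. KIF2B, a testis relative of KIF2C, had 0 reads throughout.

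**Figure D2:**
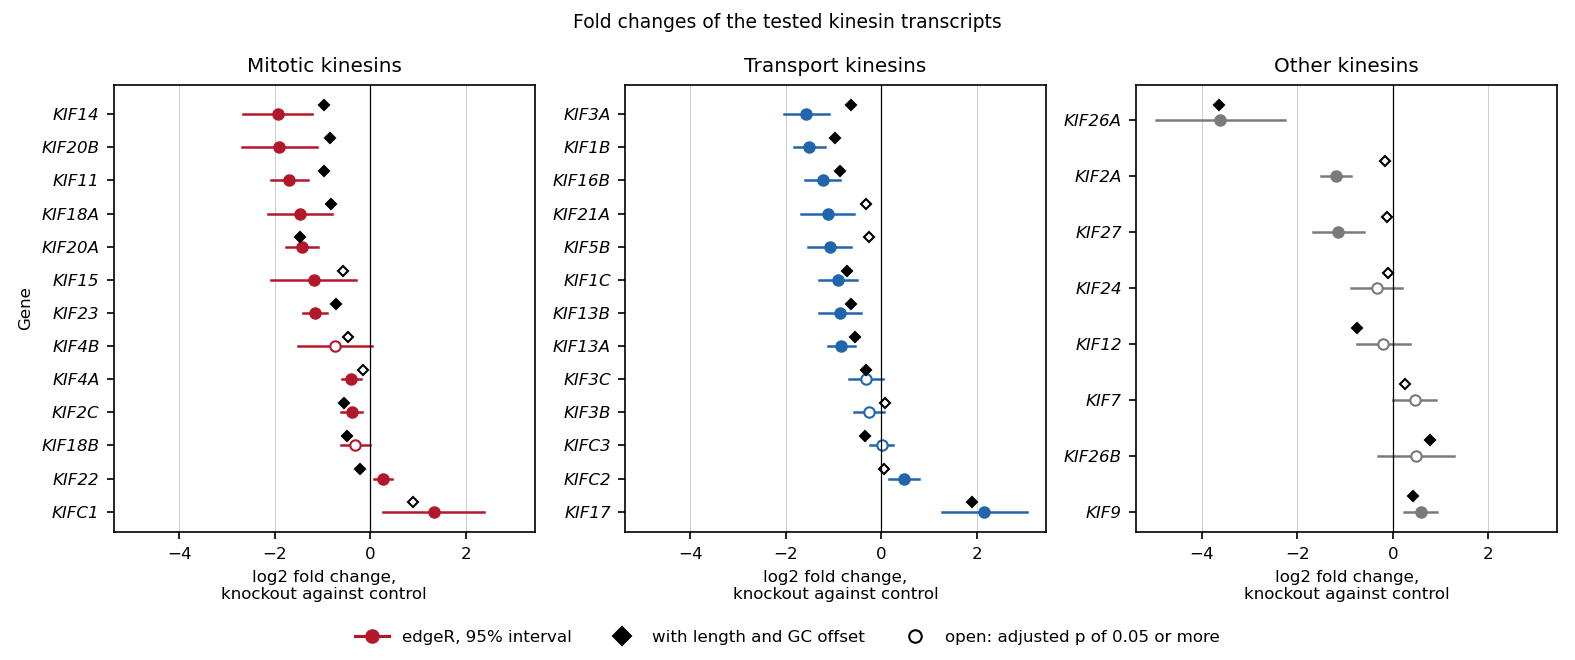
Log2 fold change of knockout against control for the 34 tested kinesins, ordered within each role, as circles with 95% intervals from edgeR and as diamonds from the fit with a length and GC offset, where open symbols did not pass an adjusted p of 0.05. Among the circles KIF14 at -1.94 leads the mitotic and KIF3A at -1.57 the transport falls, among the diamonds KIF20A at -1.47 and KIF1B at -0.98, most diamonds lie nearer 0 than their circles, and KIF22 crosses from 0.27 to -0.21.

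The partners of the mitotic motors mostly fell too. Of 21 tested spindle and midzone genes 16 fell, 1 rose and 4 did not pass, beside 30.8% lower and 28.9% higher among all tested genes, with a median log2 fold change of -1.0. With the offset 19 fell and 0 rose, with a median of -0.84, beside 28.4% lower and 30.7% higher among all tested genes. CENPE, a kinetochore kinesin without a KIF name, stood at 18.9, 63.1 and 42.8 CPM in control and 14.3, 4.76 and 12.3 CPM in knockout libraries (log2 fold change -1.99, edgeR adjusted p = 4.95e-03; -0.84 and 0.0557 with the offset). Its control libraries were spread widely, and control library 1 was close to knockout library 1. TPX2, which targets KIF11 and KIF15 to the spindle, was at 400, 417 and 408 against 222, 207 and 222 CPM (log2 fold change -0.91, edgeR adjusted p = 4.09e-05). The groups were tight and far apart. RACGAP1, the centralspindlin partner of KIF23, fell by 0.66 and PRC1, the midzone crosslinker that recruits KIF4A, fell by 0.48 on the log2 scale (edgeR adjusted p = 1.88e-04 and 1.00e-03).

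NUSAP1 (log2 fold change -1.59), KNSTRN (-1.33) and the cleavage furrow scaffold ANLN (-2.17) fell with edgeR adjusted p of 1.17e-05, 1.90e-05 and 4.95e-05. BIRC5, a subunit of the chromosomal passenger complex, rose by 0.36 on the log2 scale (edgeR adjusted p = 6.43e-03), and had 0.09 with the offset, which did not pass (edgeR adjusted p = 0.202). The per-kilobase ratio of KIF11 to TPX2 was 0.158 ± 0.0303 in control and 0.0921 ± 0.00784 in knockout libraries, and that of KIF23 to RACGAP1 0.523 ± 0.0443 and 0.371 ± 0.0407, both without overlap (exact permutation test, two-sided p = 0.1, the smallest that 3 against 3 libraries allow). In these uncorrected ratios the motor transcript was lower relative to its partner in every knockout library. With the offset KIF11 was at -0.97 and TPX2 at -0.81, and KIF23 at -0.72 and RACGAP1 at -0.50, on the log2 scale. KIF4A to PRC1 went the other way by little, from 0.645 ± 0.0159 to 0.682 ± 0.0183.

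A marker of cycling cells and the S phase genes were read beside these values. MKI67, the Ki-67 antigen, stood at 318, 397 and 358 CPM in control and 191, 51.2 and 146 CPM in knockout libraries (log2 fold change -1.47, edgeR adjusted p = 7.80e-03). Knockout library 2 was the lowest, as for PHF8 and for 28 of the 34 tested kinesins, beside 42.2% of all tested genes. These kinesins included transport motors such as KIF1B and KIF1C, so that order was not particular to mitotic motors. Of 20 tested S phase genes 4 rose, 6 fell and 10 did not pass, with a median log2 fold change of 0.01. These shares were near those of all tested genes (30.8% lower, 28.9% higher). FEN1 (0.81) and CDT1 (0.88) rose, and POLA1 (-1.26) and CLSPN (-1.32) fell. The part that a different share of dividing cells had in the kinesin values was not tested.

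The tested transport motors of the kinesin-3 family fell. Of the 5 tested long-range vesicle carriers, KIF1B, KIF1C, KIF13A, KIF13B and KIF16B, all 5 were lower, beside 30.8% of all tested genes. KIF1B (chr1:10210570-10381603), a carrier of mitochondria and synaptic vesicle precursors, stood at 73.7, 86.5 and 81.8 CPM in control and 32.1, 22.6 and 30.1 CPM in knockout libraries. The groups were far apart and control library 1 was near the other controls. The log2 fold change was -1.51 (SE 0.14, edgeR adjusted p = 4.82e-05). KIF1C (chr17:4997950-5028401), a carrier of dense core vesicles and integrins, stood at 309, 302 and 285 CPM in control and 181, 111 and 186 CPM in knockout libraries, a log2 fold change of -0.91 (SE 0.18, edgeR adjusted p = 1.93e-03). Knockout library 2 was well below the other knockout libraries.

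KIF16B, which moves early endosomes, went from 20.5 ± 2.45 to 8.73 ± 1.43 CPM (log2 fold change -1.23, SE 0.16, edgeR adjusted p = 2.11e-04). KIF13A, which moves recycling endosomes and melanosomes, went from 87.5 ± 3.64 to 49.0 ± 7.80 CPM (log2 fold change -0.84, SE 0.13, edgeR adjusted p = 4.68e-04). KIF13B, which carries the scaffold DLG, went from 18.8 ± 0.726 to 10.3 ± 2.90 CPM (log2 fold change -0.87, SE 0.20, edgeR adjusted p = 4.42e-03). In none of these 3 did the groups overlap, which held for 66.8% of all tested genes. KIF1A, the neuronal member, had 0 reads in all libraries, which allows up to 0.0426 CPM over the control and 0.0372 CPM over the knockout group, a floor of 3 reads that covers counting error only.

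In the heterotrimeric kinesin-2, KIF3A and KIFAP3 fell. KIF3A (chr5:132692628-132737638), a motor subunit needed to build cilia, stood at 9.78, 15.8 and 13 CPM in control and 3.87, 4.0 and 5.11 CPM in knockout libraries, a log2 fold change of -1.57 (SE 0.21, edgeR adjusted p = 2.29e-04). Its other motor subunit KIF3B, at 65.9, 74.6 and 71.9 against 66.0, 47.2 and 63.6 CPM, did not pass (log2 fold change -0.26, 95% interval -0.57 to 0.04, edgeR adjusted p = 0.122), and its groups overlapped. The alternative subunit KIF3C did not pass either (log2 fold change -0.32, 95% interval -0.68 to 0.04, edgeR adjusted p = 0.113), but was lower with the offset (-0.33, edgeR adjusted p = 8.21e-03), with library totals unscaled and without knockout library 1. The non-motor subunit KIFAP3, which links the pair to cargo, fell by 0.77 on the log2 scale (edgeR adjusted p = 1.01e-03), from 16.3, 19.1 and 18.1 to 9.87, 11.7 and 9.96 CPM. KIF3A per KIF3B, each per kilobase, was 0.144, 0.205 and 0.176 in control and 0.0569, 0.0821 and 0.0779 in knockout libraries. With the offset KIF3A was at -0.65 and KIF3B at 0.08 on the log2 scale. The uncorrected ratio was lower in all 3 knockout libraries (exact permutation test, two-sided p = 0.1, the smallest possible).

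KIF17, the homodimeric kinesin-2 of cilia and dendrites, rose from few reads: 9, 9 and 10 in control and 25, 36 and 69 in knockout libraries. The groups did not overlap and knockout library 3 was highest. Its log2 fold change was 2.15 (SE 0.39, edgeR adjusted p = 1.33e-03). KIF17 passed the low-count filter through the knockout libraries alone, so the filter had selected it for being higher there. That p therefore lends the rise no independent support.

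Of the kinesin-1 heavy chains, the conventional motor of mitochondria and vesicles, KIF5B was the one in use. KIF5B (chr10:32009015-32056425) stood at 115, 202 and 198 CPM in control and 83.1, 72.9 and 86.8 CPM in knockout libraries. The groups did not overlap, but control library 1 held 57.3% of the mean of the other controls. The log2 fold change was -1.08 (SE 0.20, edgeR adjusted p = 1.36e-03), which did not pass with the offset. The neuronal chains were near 0: KIF5A had 1 read in all, and KIF5C had 4 reads over the control and 31 over the knockout libraries, a ratio of 6.76 per library total with a counting interval of 2.39 to 26.4. KIF5C was too low to be tested.

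Of the remaining transport motors, KIF21A, which slows microtubule growth at the cell cortex, stood at 19.3, 31.7 and 32.5 CPM in control and 14, 8.96 and 15.3 CPM in knockout libraries (log2 fold change -1.13, SE 0.24, edgeR adjusted p = 3.39e-03). The groups did not overlap, control library 1 was again the lowest control, and the fall did not pass with the offset. KIFC2, a minus-end directed motor, was at 35.4, 32.7 and 37.3 against 54.4, 39.2 and 52.6 CPM and rose by 0.47 on the log2 scale (SE 0.14, edgeR adjusted p = 0.0161), which did not pass with the offset. KIFC3, which acts at epithelial junctions and the Golgi, had a log2 fold change of 0.01 (95% interval -0.23 to 0.25, edgeR adjusted p = 0.952). With the length and GC correction KIFC3 was lower, at -0.35 (edgeR adjusted p = 9.24e-04). KIF21B had 12 and 28 reads in the control and knockout groups and was not tested.

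Light chains and cargo adaptors held genes that fell and genes that rose: of 24 tested genes 5 rose, 12 fell and 7 did not pass, beside 28.9% higher and 30.8% lower among all tested genes, with a median log2 fold change of -0.32. With the offset 6 rose and 13 fell, with a median of -0.36, beside 30.7% higher and 28.4% lower among all tested genes. Of the light chains that tie kinesin-1 to its cargo, KLC1 stood at 147, 144 and 144 CPM in control and 78.7, 70.0 and 79.5 CPM in knockout libraries, a log2 fold change of -0.93 (edgeR adjusted p = 5.60e-05). KLC2 fell by 0.40 on the log2 scale (edgeR adjusted p = 0.0163), while KLC4 went from 13.2, 10.6 and 10.3 to 34.9, 34.3 and 39.0 CPM, a log2 fold change of 1.66 (edgeR adjusted p = 2.53e-05). KLC1 and KLC4 thus moved in opposite directions in the fit without the offset, with groups that did not overlap in CPM. The per-kilobase ratio of KIF5B to KLC1 was 0.515 ± 0.152 in control and 0.462 ± 0.0112 in knockout libraries, and its groups overlapped.

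In the fit without the offset, the adaptors that couple kinesin-1 to mitochondria also split. TRAK1 (log2 fold change -0.74), TRAK2 (-1.12) and the mitochondrial GTPase RHOT1 (-1.04) fell, with edgeR adjusted p of 2.21e-03, 5.35e-05 and 7.36e-05. The second GTPase RHOT2 rose from 67.9, 60.5 and 60.8 to 123, 140 and 140 CPM (log2 fold change 1.09, edgeR adjusted p = 4.37e-05). MAP7, which recruits kinesin-1 to microtubules, rose by 1.02 on the log2 scale (edgeR adjusted p = 6.28e-04). The kinesin-binding protein listed as KIF1BP fell by 0.49 and the kinesin-like STARD9 fell by 0.86 on the log2 scale (edgeR adjusted p = 5.59e-03 and 0.0435).

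**Figure D3:**
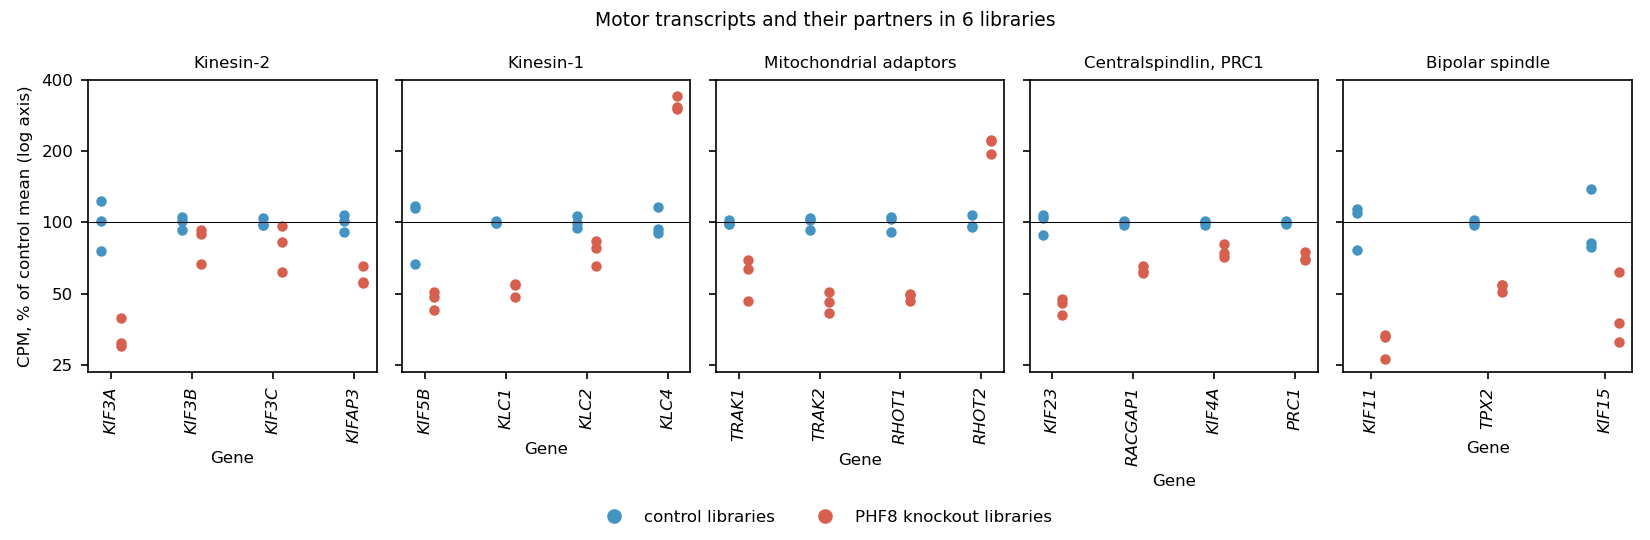
CPM of motors and their partners in each library as a percentage of the control mean, on a log axis, with 1 point per library. KIF3A falls far below KIF3B and KIF3C, KLC4 and RHOT2 lie above the control libraries while KLC1, TRAK1, TRAK2 and RHOT1 lie below them, and KIF23 and KIF11 are lower than RACGAP1 and TPX2.

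Other microtubule systems of the cell are set beside the 30.8% of all tested genes that were lower and the 28.9% that were higher. Of 27 tested dynein and dynactin genes, the minus-end directed machine, 7 rose, 9 fell and 11 did not pass, with a median log2 fold change of -0.11. The intermediate chain DYNC1I2 fell by 1.42 on the log2 scale, whereas ACTR1B (1.10) and the light chain DYNLL1 (1.09) rose (edgeR adjusted p = 1.16e-05, 5.43e-05 and 1.40e-04). Of 20 intraflagellar transport genes, whose products kinesin-2 carries, 5 rose, 10 fell and 5 did not pass, with a median of -0.39. With the offset 5 rose and 7 fell and the median turned to 0.08, beside 28.4% lower and 30.7% higher among all tested genes. The tilt to lower values was thus not kept with the offset. IFT20 (1.93) and IFT27 (1.12) rose, and TTC21B (-1.73) and WDR19 (-1.50) fell (edgeR adjusted p = 5.26e-05, 5.93e-05, 9.89e-05 and 1.77e-04). Of 18 tested tubulin and plus-end genes 5 rose, 7 fell and 6 did not pass, with a median of -0.10, among them CLASP2 (-1.50), TUBA1A (-1.37) and STMN1 (-1.0), which fell, and TUBB3 (0.80), which rose. With the offset 3 of them rose and 10 fell, with a median of -0.18. For dynein and dynactin 7 rose and 9 fell with the offset, with a median of 0.02.

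Among the other kinesins, KIF2A, KIF27 and KIF26A fell and KIF9 rose. KIF2A (chr5:62306162-62391025), a microtubule depolymerase, stood at 25.2, 34.0 and 33.0 CPM in control and 14.2, 12.9 and 13.6 CPM in knockout libraries, a log2 fold change of -1.18 (SE 0.14, edgeR adjusted p = 1.35e-04). The groups were far apart, but 27.2% of its canonical transcript overlaps exons of DIMT1 on the opposite strand, and the strand setting of the counting is not given in the sources used here. DIMT1 had 472, 456 and 511 reads in control and 596, 714 and 766 in knockout libraries, so its counts were higher where those of KIF2A were lower. The part of DIMT1 reads in the KIF2A values was not tested. KIF27, a relative of the Hedgehog regulator KIF7, went from 3.69 ± 0.897 to 1.67 ± 0.306 CPM (log2 fold change -1.14, SE 0.24, edgeR adjusted p = 2.87e-03). With the offset neither KIF2A (-0.17, edgeR adjusted p = 0.114) nor KIF27 (-0.11, edgeR adjusted p = 0.662) passed. KIF26A, an atypical member without known motor activity, had 40 reads over the control and 3 over the knockout libraries. That is 15.3-fold more per library total in control, with a counting interval of 4.87 to 77.2. KIF26A passed the low-count filter through the control libraries alone, so the filter had selected it for being higher there.

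KIF9, a motor of cilia and flagella, was at 4.43, 5.24 and 4.11 CPM in control and 7.08, 6.78 and 6.80 CPM in knockout libraries, a log2 fold change of 0.58 (SE 0.15, edgeR adjusted p = 9.25e-03). The groups did not overlap. Exons of the antisense gene KIF9-AS1 overlap 17.1% of its canonical transcript, and that gene had 95, 71 and 95 reads in control and 26, 21 and 48 in knockout libraries. KIF7 (log2 fold change 0.46, 95% interval 0.01 to 0.91), KIF26B (0.49, -0.31 to 1.29), KIF24 (-0.33, -0.87 to 0.20) and KIF12 (-0.20, -0.74 to 0.35) did not pass, and in all 4 the groups overlapped. With the offset KIF12 was lower (-0.75, edgeR adjusted p = 0.0200) and KIF26B higher (0.78, edgeR adjusted p = 0.0149). KIF6 had 8 and 4 reads, KIF25 had 10 and 17, and KIF19 had 0 in the control and knockout groups.

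Control library 1 and the base composition of the transcripts moved with these results. Over the 34 tested kinesins, Spearman's rho between log2 fold change and GC content of the canonical transcript was 0.66, and between GC content and the level of control library 1 as a share of the other controls it was 0.84. These are descriptions over genes, which share the 6 libraries and are not independent replicates. With the genes cut into 4 bins of equal number, in the bin lowest in GC (28.6% to 41.9%), all 11 kinesins fell, with a median log2 fold change of -1.18, beside -0.63 for all 3326 genes there, of which 60.5% fell. In the next higher bins 2 of 4 and 6 of 10 kinesins fell, beside 39.6% and 17.2% of their genes. The bin from 48.0% to 56.3% GC, which holds KIF20A, KIF1B, KIF1C, KIF13A and KIF13B, had a kinesin median of -0.61 beside 0.20 for its genes. In the bin highest in GC 1 of 9 kinesins fell, beside 11.8% of its genes, and the kinesin median was 0.27 beside 0.43 for its genes. In that bin 4 kinesins rose, but the share of its genes that rose was not counted. These rises therefore cannot be called particular to kinesins.

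**Figure D4:**
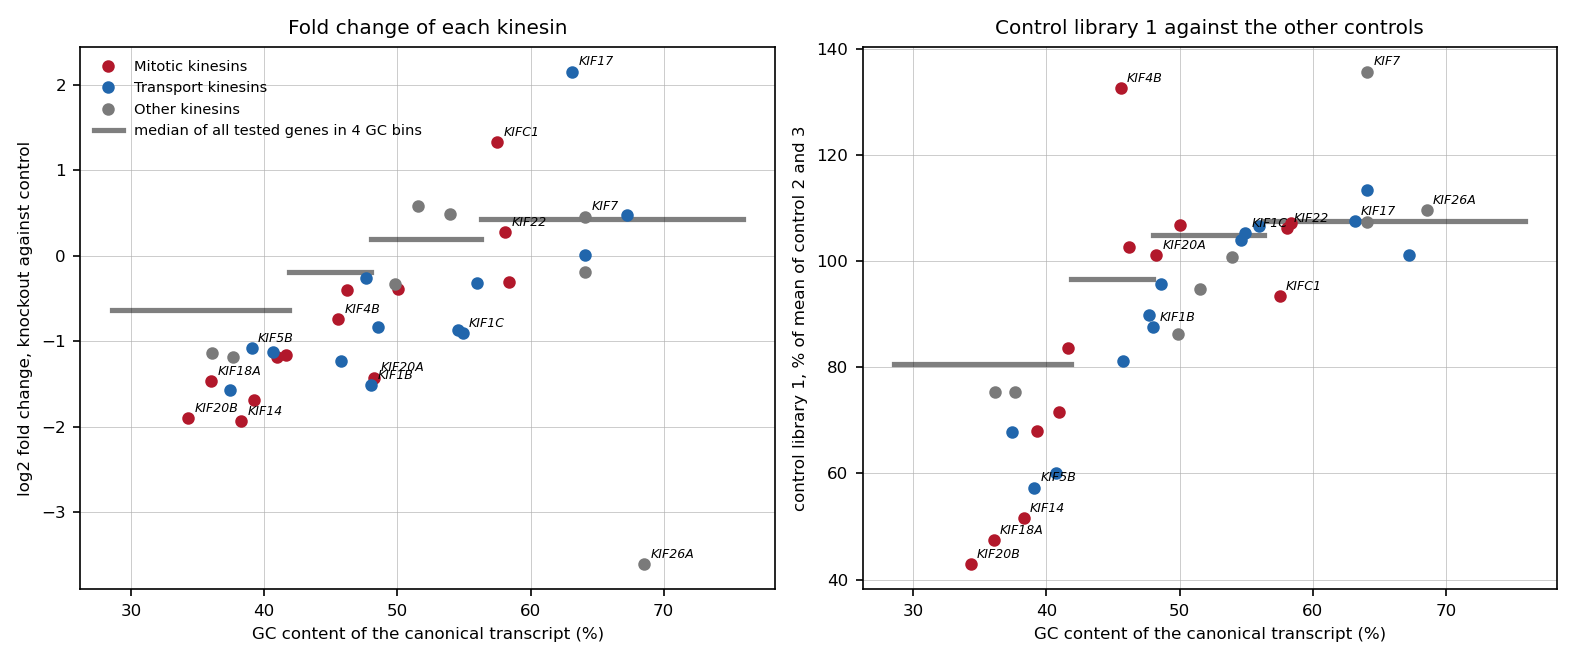
GC content of the canonical transcript (x axis, %) of each tested kinesin against its log2 fold change (left) and against control library 1 as a percentage of the mean of control libraries 2 and 3 (right), with grey bars for the median of all tested genes in 4 GC bins. Kinesins low in GC lie lowest in both panels, and KIF20A, KIF1B and KIF1C lie below the grey bars on the left while control library 1 is close to the other controls for them.

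An offset that removes smooth trends with transcript length and GC content from each library also removes any difference between the groups that follows these properties. With it, 9 mitotic, 8 transport and 2 other kinesins fell and 0, 1 and 2 rose, beside 28.4% lower and 30.7% higher (59.1% either way) among all tested genes. Of those that had fallen, 7 of 9 mitotic and 6 of 8 transport kinesins passed again, and KIF15, KIF4A, KIF21A and KIF5B did not. The median log2 fold change became -0.57 for mitotic, -0.35 for transport and -0.11 for other kinesins, beside 0.02 for all genes. KIF2C passed with a larger fall (-0.56, edgeR adjusted p = 9.25e-05). KIF20A kept its size (-1.47, edgeR adjusted p = 1.63e-05), KIF1C moved little (-0.71, edgeR adjusted p = 1.59e-05), and KIF1B (-0.98), KIF11 (-0.97), KIF14 (-0.96), KIF20B (-0.85), KIF18A (-0.82), KIF23 (-0.72) and KIF3A (-0.65) passed with smaller falls. KIF5B (-0.25, edgeR adjusted p = 0.0888), KIF4A (-0.16, edgeR adjusted p = 0.0547) and KIF21A (-0.32, edgeR adjusted p = 0.131) did not pass, nor did KIFC2 (0.06, edgeR adjusted p = 0.606) and KIFC1 (0.89, edgeR adjusted p = 0.112). KIF18B (-0.49, edgeR adjusted p = 1.44e-04) passed only with the offset or with library totals unscaled or without a filter, among the settings run. Whether the trend with GC content arose in the libraries or in the cells was not tested.

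Without control library 1, 9 mitotic, 8 transport and 3 other kinesins fell and 1, 2 and 2 rose, beside 28.1% lower and 27.9% higher among all tested genes. With the offset and without that library, 9, 10 and 2 fell, and KIF5B and KIF21A passed again, beside 25.3% lower and 28.1% higher among all tested genes. DESeq2 called 8 mitotic, 8 transport and 3 other kinesins lower and 2, 3 and 1 higher, beside 23.8% and 22.3% of its tested genes. With library totals in place of TMM factors, 11, 10 and 3 fell and 0, 1 and 1 rose, beside 37.8% lower and 21.9% higher among all tested genes, and the median of all genes shifted to -0.18.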

How the data were processed

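RNA was sequenced in 3 control and 3 PHF8 knockout libraries of 786-O cells. The deposited values are whole-number read counts per gene symbol, not normalized. Per the labels, the authors mapped reads to GRCh38 with HISAT2 (version 2.0.4 in the submitters' processing notes) and counted them with HTSeq. For HTSeq, its version, strand setting and annotation were not given in the sources used here. No use was made of the authors' own DESeq2 calls.

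Knockout was compared with control by the quasi-likelihood test of edgeR 4.0.16 (under R 4.3.3 and limma 3.58.1), with TMM factors of 1.05 to 1.07 for control and 0.94 to 0.96 for knockout libraries, filterByExpr (14398 of 54261 rows), a prior count of 0.125 for fold changes and Benjamini-Hochberg adjustment over all tested genes. CPM is scaled by the TMM factors, ± is the SD, and the SE of a fold change was obtained from its size and F statistic. The biological coefficient of variation was 14.1%. Libraries of 1 group differed by more than sampling noise (chi-square per degree of freedom 3.10 to 74.3). The test was also run on simulated counts in which a small set of genes was changed by known folds. That run recorded only how many of them were recovered. It counted no false calls and held no trend with GC content, so it cannot speak for either in these data.

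Coordinates, transcript lengths and GC contents come from GENCODE v44 on GRCh38, matched by symbol (34408 directly, 1574 by an older symbol, 18279 not). Trends with length and GC content were fitted per library by lowess (span 0.3) and taken out where both were known, for 92.4% of tested genes. Promoters come from RefSeq on GRCh38.p14. The text names every kinesin, in full where it passed with a mean of at least 1 CPM, up to 4 called members of each partner list with the smallest p, direct partners, and, chosen after their values were seen, MKI67, RHOT1, RHOT2, BIRC5 and the neighbours of KIFC1. Members, roles and lists were chosen with earlier results of these data known. Alternatives were DESeq2 1.42.0, limma-voom, other scaling factors and filters, robust dispersions, a replicate block, the offset, a 2-fold criterion and leaving out each library.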

Additional observations from a re-analysis of the deposited data

How the results depend on the processing

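Counts of kinesins that fell were 9 mitotic, 8 transport and 3 other, and of those that rose 2, 2 and 1. Median-ratio and upper-quartile factors and robust dispersions gave the same 25 calls. With DESeq2, 24 of them were shared: KIF15 was lost and KIF5C gained. Unscaled library totals, which shift the median of all genes to -0.18, gave 11, 10 and 3 falls and 0, 1 and 1 rises, losing KIF22, KIFC1 and KIFC2. Without a filter 10 mitotic, 8 transport and 3 other kinesins fell and 1, 3 and 1 rose. With the stricter filter, which left out KIF15, KIF17 and KIF26A, 8, 8 and 2 fell and 2, 1 and 1 rose. With limma-voom 9, 8 and 3 fell and 1, 2 and 1 rose. Shares over all tested genes were not taken for these filters and for limma-voom, so these counts cannot be set beside them. Requiring more than 2-fold left 7, 5 and 3 falls and 1, 1 and 0 rises. The length and GC offset gave 0 mitotic, 1 transport and 2 other rises, and without control library 1 as well, an alternative chosen after seeing the data, 0, 1 and 1. KIF22 reversed to -0.21 with the offset, -0.21 with offset and replicate block and -0.23 with offset and without control library 1, and KIFC3 to -0.35, -0.35 and -0.32. These fits remove trends with length and GC by construction.

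Leaving out each library in turn gave 8 to 9 mitotic, 8 to 9 transport and 3 other falls, and 0 to 2, 1 to 2 and 1 to 3 rises. Of these fits, shares over all tested genes were taken only without control library 1, at 28.1% lower and 27.9% higher. Leaving out control library 1, control library 3 or knockout library 3 ended the call of KIFC1. For KIF22 it was control library 2 or 3 or knockout library 3, for KIFC2 control library 2 or knockout library 1 or 3, and for KIF15 control library 2 or knockout library 1 or 2. KIF26B and KIF7 passed as higher without knockout library 2. Same-numbered libraries did not visibly deviate together (r = 0.020, -0.044 and 0.011). With 3 libraries per group a weak shared effect could not be seen this way, and the labels do not say whether the numbers pair them. With the replicate block 1 mitotic and 2 other kinesins rose, and with block and offset 0 mitotic, 1 transport and 2 other. Shares over all tested genes were not taken for the fits with the block. Depth limits 8 kinesins that were not tested and KIF15, KIF17, KIFC1 and KIF26A, which rest on few reads.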
